A study of Mus musculus with 32 samples.

Results

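Cib3, Hpgd, Otoa and Zdhhc22 are 4 of the 36595 genes in a count table of cultured mouse islets, selected on their genotype by glucose interaction: their levels in human IAPP islets at 16.7 mM glucose lay below what the separate effects of genotype and glucose add up to. The choice used the genotype by glucose interaction of these same libraries, so the interaction and the differences within 1 glucose level or 1 genotype are given for the 4 genes as descriptions, with no test. The islets came from 10-week-old C57BL/6NHsd mice of both sexes. The hIAPP mice carry human IAPP in place of the mouse gene, put there by homologous recombination, and the mIAPP mice are their wild-type littermates. All islets recovered overnight at 11.1 mM glucose after collagenase isolation and were then kept for 48 h in one of 2 media. The 4 groups were 16.7 mM hIAPP islets, 16.7 mM mIAPP islets, 11.1 mM hIAPP islets and 11.1 mM mIAPP islets, with 8 libraries each. Each of 8 sets of experiments supplied 1 library to every group. The labels do not say how many animals, or which sex, went into a library, so p-values measure the spread of the group differences between sets.

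IAPP is a peptide hormone that beta cells release together with insulin. The human form folds into amyloid fibrils in islets and the mouse form does not, and raised glucose increases its secretion. A genotype by glucose interaction asks whether the genotype difference at one glucose level differs from that at the other. The 4 genes belong to unrelated families. Cib3 encodes a calcium-binding EF-hand protein of the calcium and integrin binding family, which acts with Cib2 as an auxiliary subunit of the mechanotransduction channel in hair cells. Hpgd encodes 15-hydroxyprostaglandin dehydrogenase, the NAD-dependent enzyme that begins the inactivation of prostaglandin E2. Otoa encodes otoancorin, which attaches the tectorial membrane of the inner ear to the cells below it. Zdhhc22 encodes a membrane acyltransferase that adds palmitate to proteins, among them the BK potassium channel.

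The 4 genes are protein-coding in the GENCODE M21 annotation of GRCm38. Cib3 (ENSMUSG00000074240) lies on the minus strand at chr8:72204335-72212837, with 2 transcripts of 4 to 5 exons. Hpgd (ENSMUSG00000031613) lies on the plus strand at chr8:56294585-56321043, with 1 transcript of 7 exons. Otoa (ENSMUSG00000034990) lies on the plus strand at chr7:121081650-121163097, with 7 transcripts of 1 to 29 exons. Zdhhc22 (ENSMUSG00000048483) lies on the minus strand at chr12:86980763-86990430, with 3 transcripts of 2 to 3 exons. Counts were summed per gene, so a change of transcript within a gene cannot be seen.

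The promoters are shown so that the 4 genes can be compared at the sequence level. Each window runs from 250 bases before to 50 bases after a RefSeq transcription start (GRCm38.p6) and reads 5′ to 3′ on the strand of the gene. All 4 symbols matched the promoter table. The windows are chr8:72212788-72213087 (minus strand) for Cib3, chr8:56294302-56294601 (plus strand) for Hpgd, chr7:121083174-121083473 (plus strand) for Otoa and chr12:86990529-86990828 (minus strand) for Zdhhc22. Zdhhc22 had 2 windows whose starts lay 252 bases apart, and the one nearer its annotated start in GENCODE is printed. The Otoa window lies downstream of the GENCODE start of the gene, chr7:121081650, and does not cover that start. Capitals mark matches to the motifs named after the sequences.
Cib3: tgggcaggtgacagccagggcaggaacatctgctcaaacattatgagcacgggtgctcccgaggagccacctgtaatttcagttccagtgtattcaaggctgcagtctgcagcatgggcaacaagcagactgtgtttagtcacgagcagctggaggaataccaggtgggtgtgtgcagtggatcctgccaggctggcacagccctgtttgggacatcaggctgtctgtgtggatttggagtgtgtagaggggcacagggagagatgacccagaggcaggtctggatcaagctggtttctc
Hpgd: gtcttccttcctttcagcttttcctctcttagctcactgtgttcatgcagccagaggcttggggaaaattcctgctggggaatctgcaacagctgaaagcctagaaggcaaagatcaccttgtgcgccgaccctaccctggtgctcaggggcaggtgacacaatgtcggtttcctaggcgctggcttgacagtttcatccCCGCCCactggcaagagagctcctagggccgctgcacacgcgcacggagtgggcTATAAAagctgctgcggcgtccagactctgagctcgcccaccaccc
Otoa: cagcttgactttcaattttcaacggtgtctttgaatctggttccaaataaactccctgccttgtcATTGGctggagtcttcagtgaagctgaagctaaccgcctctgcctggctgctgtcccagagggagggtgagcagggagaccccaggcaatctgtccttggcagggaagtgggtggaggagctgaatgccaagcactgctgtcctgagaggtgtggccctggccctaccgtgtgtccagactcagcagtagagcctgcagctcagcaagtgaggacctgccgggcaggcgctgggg
Zdhhc22: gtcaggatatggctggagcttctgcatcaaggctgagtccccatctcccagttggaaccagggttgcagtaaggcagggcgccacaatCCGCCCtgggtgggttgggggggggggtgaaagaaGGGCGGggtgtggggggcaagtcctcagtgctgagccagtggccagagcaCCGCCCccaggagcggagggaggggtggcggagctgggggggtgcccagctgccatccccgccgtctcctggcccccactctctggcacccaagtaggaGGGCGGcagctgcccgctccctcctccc

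On both strands, 6 motifs were searched. The core promoter motifs were the TATA box, spelled TATAAA, the CCAAT box, spelled by its name, and the GC box, spelled GGGCGG. The others were the E-box, spelled CACGTG, the cyclic AMP response element, spelled TGACGTCA, and the AP-1 site, spelled TGANTCA. The Hpgd window held 1 GC box and a TATA box. The TATA box begins 4 bases after the RefSeq start that anchors the window and 29 bases before the GENCODE start. The Otoa window held 1 CCAAT box, the printed Zdhhc22 window held 4 GC boxes, and the Cib3 window and the other Zdhhc22 window held none of the 6 motifs. Among 32851 RefSeq promoter windows of 27025 genes, 13.6% held the TATA box, 37.4% the CCAAT box, 35.7% the GC box, 7.15% the E-box, 1.79% the cyclic AMP response element and 7.81% the AP-1 site. No motif was present in the windows of all 4 genes. The GC content was 55.7% for Cib3, 58% for Hpgd, 58% for Otoa and 69% for the printed Zdhhc22 window, against a median of 52.7% over all windows, whose middle range ran from 45.7% to 61.7%.

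The libraries held 16112555 to 43702277 estimated counts, and 16428 genes passed the filter on low counts, the 4 genes among them. The level of Iapp, the targeted gene, was 9764 to 11583 CPM (counts of a gene scaled to a common library size) in 16.7 mM hIAPP islets against 16864 to 30408 CPM in 16.7 mM mIAPP islets, and the genotypes did not overlap at 11.1 mM either. The row separated the genotypes but was not near 0 in hIAPP islets, although the labels give the mouse gene as replaced, and whether reads of the human gene were counted in this row was not tested. Counts of mitochondrially encoded genes made up a median of 3.50% of 16.7 mM hIAPP libraries (2.68% to 6.76%), 7.29% of 16.7 mM mIAPP libraries (2.84% to 37.0%), 18.1% of 11.1 mM hIAPP libraries (5.23% to 27.2%) and 20.4% of 11.1 mM mIAPP libraries (3.49% to 34.7%). This share therefore moved with the groups.

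The 4 genes fell into 2 patterns. Cib3 was lower at 16.7 mM than at 11.1 mM in both genotypes, by more in hIAPP islets. Hpgd was lower at 16.7 mM in hIAPP islets, whereas its log2 difference in mIAPP islets was -0.52 ± 0.34 (SE) and turned to 0.20 ± 0.52 among libraries with under 10% mitochondrial counts. Otoa and Zdhhc22 were higher at 16.7 mM in mIAPP islets, by 3.11-fold and 6.46-fold, whereas in hIAPP islets the log2 change of Otoa was 0.00 ± 0.20 (SE) and Zdhhc22 was 2.26-fold higher. At 11.1 mM the genotypes were close for Cib3, Otoa and Zdhhc22. Levels below are CPM scaled by TMM, which corrects for differences in library composition. In whole islets, fewer cells of a type and less RNA per cell cannot be told apart.

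**Figure D1:**
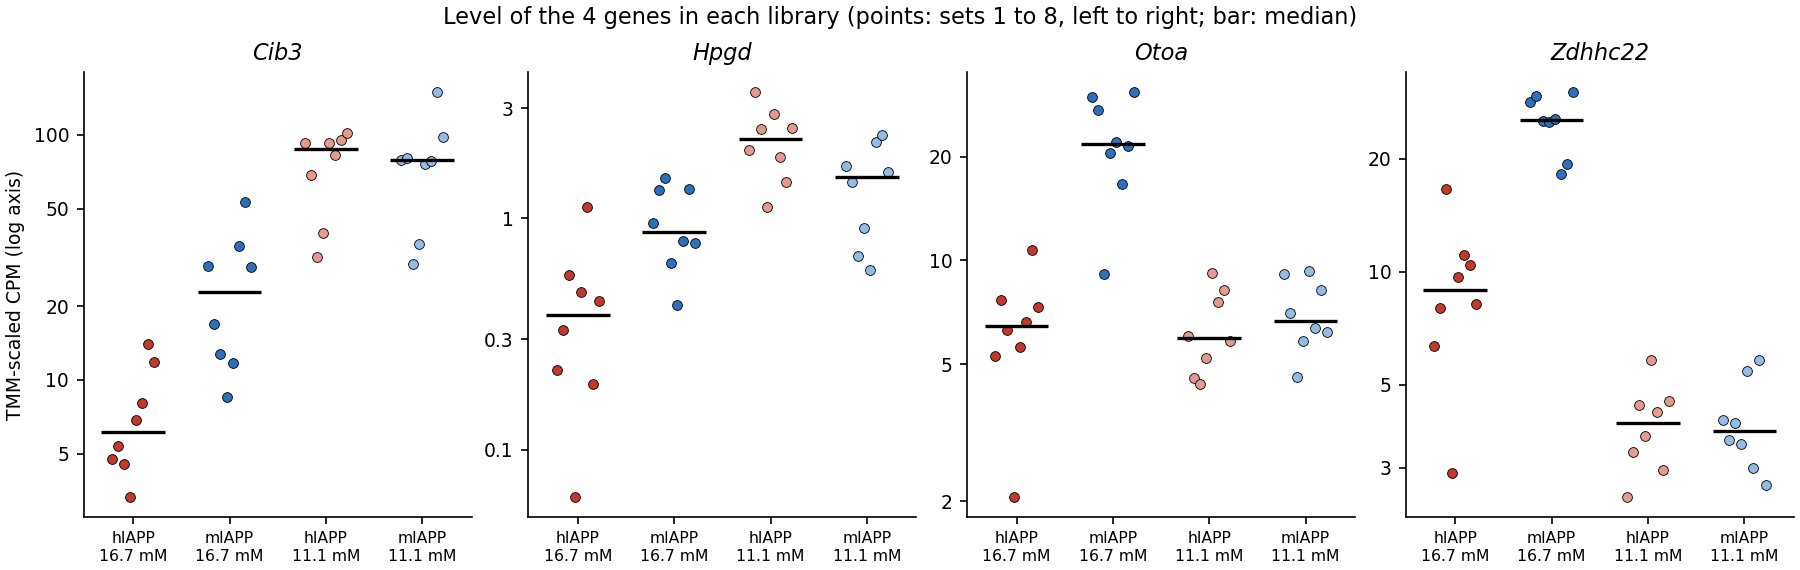
Level of each gene in each of the 32 libraries (vertical log axis, TMM-scaled CPM; points run from set 1 to set 8 within a group, bars are group medians). Cib3 and Hpgd were lowest in 16.7 mM hIAPP islets, and Otoa and Zdhhc22 were high in 16.7 mM mIAPP islets, with medians of 21.75 and 25.40 CPM.

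Cib3 was lowest in 16.7 mM hIAPP islets. Its lowest, median and highest levels were 3.35, 6.14 and 13.99 CPM in 16.7 mM hIAPP islets, 8.52, 22.83 and 53.15 CPM in 16.7 mM mIAPP islets, 31.69, 87.53 and 101.26 CPM in 11.1 mM hIAPP islets, and 29.79, 78.80 and 148.67 CPM in 11.1 mM mIAPP islets. The 16.7 mM hIAPP libraries lay low but overlapped the mIAPP libraries at that glucose level, and the 2 genotypes covered the same range at 11.1 mM. Every hIAPP library at 16.7 mM was below every library at 11.1 mM. The hIAPP level at 16.7 mM was 3.20-fold lower than the mIAPP level (log2 difference -1.68 ± 0.17 SE), with the hIAPP library lower in 8 of 8 sets. At 11.1 mM the genotype difference was 0.02 ± 0.16 on the log2 scale. The 16.7 mM level was 10.7-fold lower than the 11.1 mM level in hIAPP islets and 3.30-fold lower in mIAPP islets. In the order of levels, the neighbours that did not differ beyond their spread were the 2 groups at 11.1 mM.

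Hpgd had few counts, with 2 to 38 counts per library in 16.7 mM hIAPP islets and 14 to 44 in 16.7 mM mIAPP islets, so counting error is large. Its lowest, median and highest levels were 0.06, 0.38 and 1.12 CPM in 16.7 mM hIAPP islets, 0.42, 0.88 and 1.499 CPM in 16.7 mM mIAPP islets, 1.12, 2.20 and 3.51 CPM in 11.1 mM hIAPP islets, and 0.60, 1.51 and 2.29 CPM in 11.1 mM mIAPP islets. The genotypes overlapped at both glucose levels. The hIAPP level at 16.7 mM was 2.44-fold lower than the mIAPP level (log2 difference -1.29 ± 0.36 SE) and was lower in 6 of 8 sets. With the mitochondrial share of the library as a covariate, this difference was -0.75 ± 0.42. At 11.1 mM the difference ran the other way, 0.67 ± 0.33 on the log2 scale, with hIAPP higher in 6 of 8 sets. The glucose difference, 16.7 over 11.1 mM, was -2.48 ± 0.35 in hIAPP islets and -0.52 ± 0.34 in mIAPP islets on the log2 scale. Neighbouring groups in the order of medians overlapped throughout.

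Otoa was high in 1 group. Its lowest, median and highest levels were 2.07, 6.45 and 10.75 CPM in 16.7 mM hIAPP islets, 9.14, 21.75 and 30.69 CPM in 16.7 mM mIAPP islets, 4.38, 5.94 and 9.22 CPM in 11.1 mM hIAPP islets, and 4.60, 6.69 and 9.30 CPM in 11.1 mM mIAPP islets. The hIAPP and mIAPP groups at 16.7 mM overlapped through the mIAPP library of set 3 alone, and the other 3 groups covered one range and did not differ beyond their spread. The hIAPP level at 16.7 mM was 3.45-fold lower than the mIAPP level (log2 difference -1.79 ± 0.20 SE), in 8 of 8 sets. At 11.1 mM the difference was -0.15 ± 0.20 on the log2 scale.

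Zdhhc22 was highest in 16.7 mM mIAPP islets. Its lowest, median and highest levels were 2.91, 8.95 and 16.67 CPM in 16.7 mM hIAPP islets, 18.18, 25.40 and 30.07 CPM in 16.7 mM mIAPP islets, 2.52, 3.95 and 5.80 CPM in 11.1 mM hIAPP islets, and 2.70, 3.76 and 5.82 CPM in 11.1 mM mIAPP islets. The 16.7 mM hIAPP libraries lay wholly below the 16.7 mM mIAPP libraries, which 1 of the 4 genes showed; over all genes tested, 0.584% did, and since this contrast enters the choice of the genes nothing is read from it. The groups at 11.1 mM did not differ beyond their spread. The hIAPP level at 16.7 mM was 2.89-fold lower than the mIAPP level (log2 difference -1.53 ± 0.21 SE), and the difference at 11.1 mM was -0.02 ± 0.22. Relative to 11.1 mM, the log2 change at 16.7 mM was 1.18 ± 0.22 in hIAPP islets and 2.69 ± 0.22 in mIAPP islets.

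**Figure D2:**
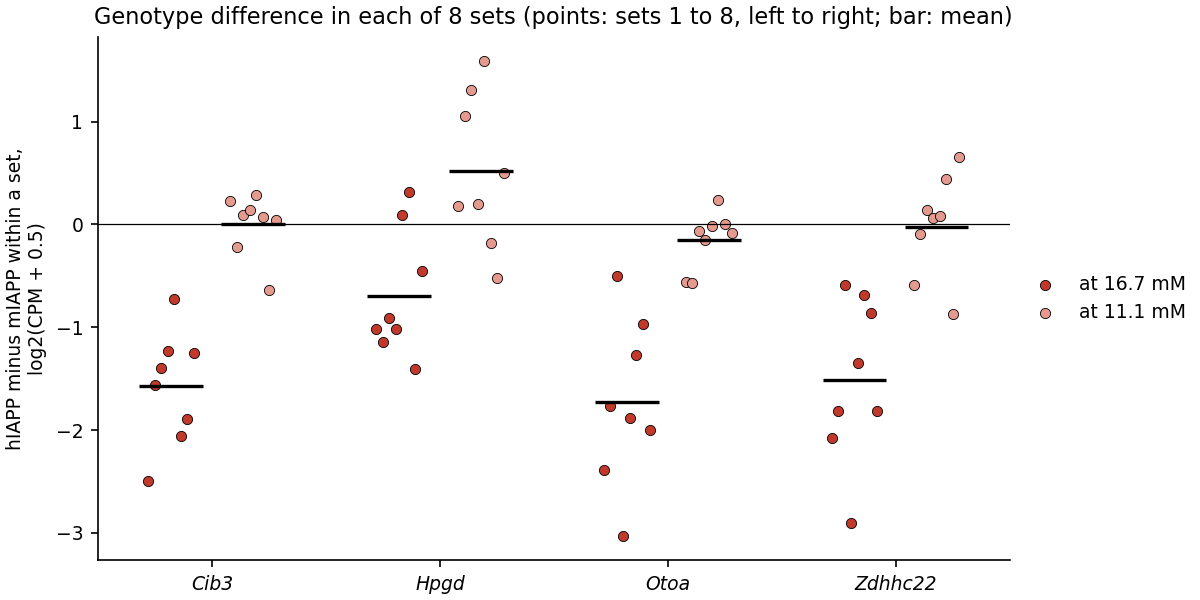
Difference in log2(CPM + 0.5), hIAPP minus mIAPP, within each set (points run from set 1 to set 8, bars are means; dark points 16.7 mM, light points 11.1 mM). At 16.7 mM, Cib3, Otoa and Zdhhc22 were below 0 in 8 of 8 sets and Hpgd in 6.

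The interaction was -1.70 ± 0.24 for Cib3, -1.96 ± 0.49 for Hpgd, -1.63 ± 0.29 for Otoa and -1.52 ± 0.30 for Zdhhc22 on the log2 scale (SE, 8 sets). Within sets it was below 0 in 8 of 8 for Cib3 and Otoa, and in 7 of 8 for Hpgd and Zdhhc22. In edgeR's quasi-likelihood test with Benjamini-Hochberg adjustment at 0.05, 156 of 16428 genes, 0.95%, had a negative interaction, and 2.17% had a positive one. The list of 4 states no threshold. Of the 156, 110 had a mean of at least 1 CPM and no clone name, Gm number, or olfactory or vomeronasal receptor symbol. Among these 110, the sizes just inside and outside the choice interleaved. Hpgd, Cib3, Npas4 (-1.68), Otoa, Ccnb1ip1 (-1.58) and Zdhhc22 came in this order, followed by Pou2f2 (-1.40). Npas4, an activity-dependent transcription factor, and Ccnb1ip1 lie within the range of the 4 genes without being among them, and Ccnb1ip1 and Pou2f2 are named after their values were seen. Among all 156, the 4 genes ranked 19 (Hpgd), 24 (Cib3), 27 (Otoa) and 31 (Zdhhc22) by size. These ranks describe the choice and are no test of the 4 genes.

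**Figure D3:**
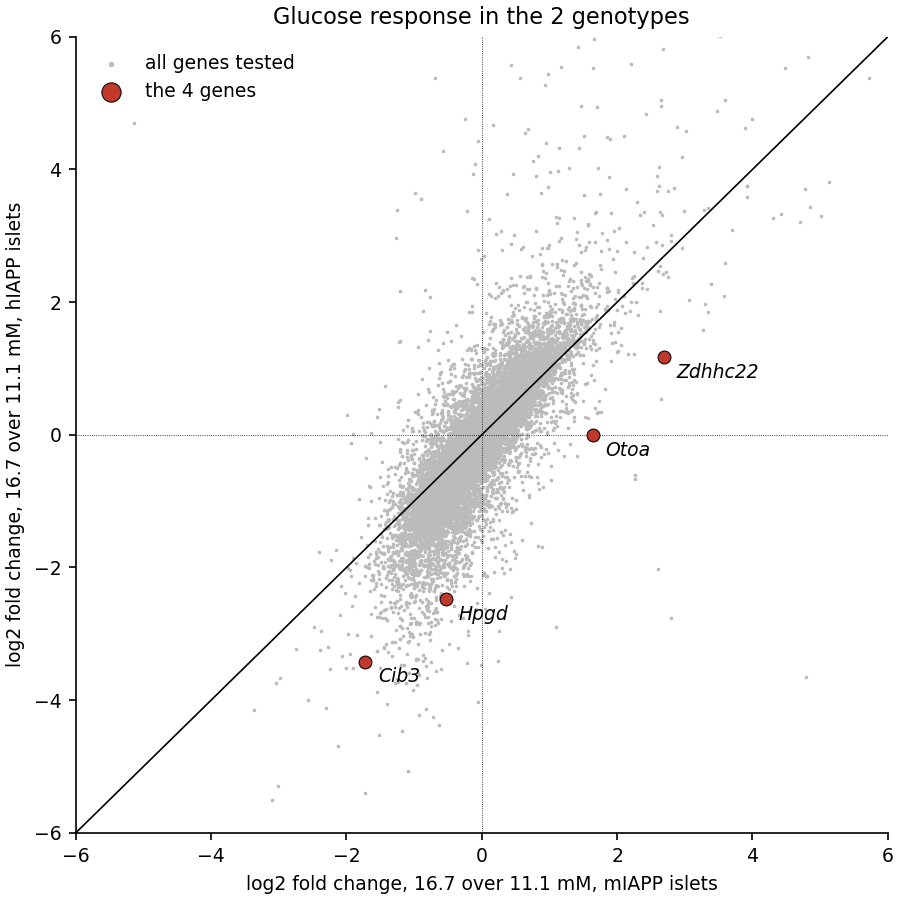
Log2 fold change of 16.7 over 11.1 mM in mIAPP islets (horizontal axis) and in hIAPP islets (vertical axis) for the genes tested, with the 4 genes in red and a line of equal response. All 4 lay below the line, Cib3 and Hpgd among genes lower at 16.7 mM and Otoa and Zdhhc22 right of 0; 23 genes beyond 6 on either axis are outside the plot.

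The average genotype effect over both glucose levels and the average glucose effect over both genotypes are orthogonal to the interaction in this balanced design, approximately so in the count model, and were tested. The average genotype effect still holds the difference at 16.7 mM, so a gene that differs there alone has one. At 11.1 mM the log2 difference was 0.02 ± 0.16 for Cib3, -0.15 ± 0.20 for Otoa and -0.02 ± 0.22 for Zdhhc22. Their averages thus rest on the 16.7 mM difference, which entered the choice, and are no separate evidence of a genotype effect. In edgeR's quasi-likelihood test, hIAPP islets were lower for 3 of the 4 genes: Cib3 by a log2 difference of -0.83 ± 0.12 (adjusted p = 4.32e-05), Otoa by -0.97 ± 0.14 (adjusted p = 7.98e-05) and Zdhhc22 by -0.77 ± 0.15 (adjusted p = 0.00186), each in 8 of 8 sets. Hpgd did not pass, at -0.31 ± 0.24 (adjusted p = 0.393), lower in 4 of 8 sets. Over all genes tested, 6.36% were lower in hIAPP islets and 5.67% higher. In an exact two-sided sign-flip permutation test over the 8 sets, Cib3, Otoa and Zdhhc22 each gave p = 0.0078125, the smallest that 8 sets can give, and Hpgd gave 0.656. Among the libraries with under 10% mitochondrial counts, none of the 3 passed in edgeR: the adjusted p was 0.0839 for Cib3 (-0.81), 0.0778 for Otoa (-1.09) and 0.133 for Zdhhc22 (-0.86).

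The average glucose effect passed for all 4 genes in edgeR's quasi-likelihood test. At 16.7 mM, Cib3 fell by 2.57 ± 0.12 (adjusted p = 3.40e-15) and Hpgd fell by 1.501 ± 0.24 (adjusted p = 5.70e-06) on the log2 scale, with 36.1% of all genes tested lower. Otoa rose by 0.82 ± 0.14 (adjusted p = 1.70e-05) and Zdhhc22 by 1.93 ± 0.15 (adjusted p = 4.30e-11), with 34.8% of all genes higher. Each held its direction in 8 of 8 sets, with an exact sign-flip permutation p of 0.0078125. The average of Otoa came from mIAPP islets, with a log2 change of 1.64 ± 0.20 there and 0.00 ± 0.20 in hIAPP islets. That of Hpgd came mostly from hIAPP islets, at -2.48 ± 0.35 against -0.52 ± 0.34 in mIAPP islets. These differences between genotypes entered the choice of the genes. The averages of Otoa and Hpgd are thus no separate evidence of a glucose effect. With the mitochondrial share as a covariate, Hpgd (-0.82, adjusted p = 0.118) and Otoa (0.59, adjusted p = 0.0608) no longer passed.

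Within groups and sets, Cib3 moved with the mitochondrial share: its log2 level rose by 0.41 ± 0.09 per doubling of that share (adjusted p = 0.000683 in edgeR's quasi-likelihood test). A slope passed the test in 37.5% of all genes tested. The slope was 0.47 ± 0.23 for Hpgd (adjusted p = 0.113), -0.16 ± 0.14 for Otoa (adjusted p = 0.389) and -0.09 ± 0.15 for Zdhhc22 (adjusted p = 0.684). With the share as a covariate, the interaction was -1.18 ± 0.20 for Cib3, -1.41 ± 0.53 for Hpgd, -1.81 ± 0.32 for Otoa and -1.62 ± 0.35 for Zdhhc22. Among libraries with under 10% mitochondrial counts (at 16.7 mM 8 of hIAPP and 5 of mIAPP islets, at 11.1 mM 2 of hIAPP and 3 of mIAPP islets), it was -1.56 ± 0.41 for Cib3, -2.55 ± 0.74 for Hpgd, -1.77 ± 0.51 for Otoa and -1.73 ± 0.54 for Zdhhc22. Compared with the main model, the interaction of Cib3 and Hpgd was smaller with the covariate, and that of Otoa and Zdhhc22 was not. The share moved with the groups, and its part in the interaction was not tested.

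**Figure D4:**
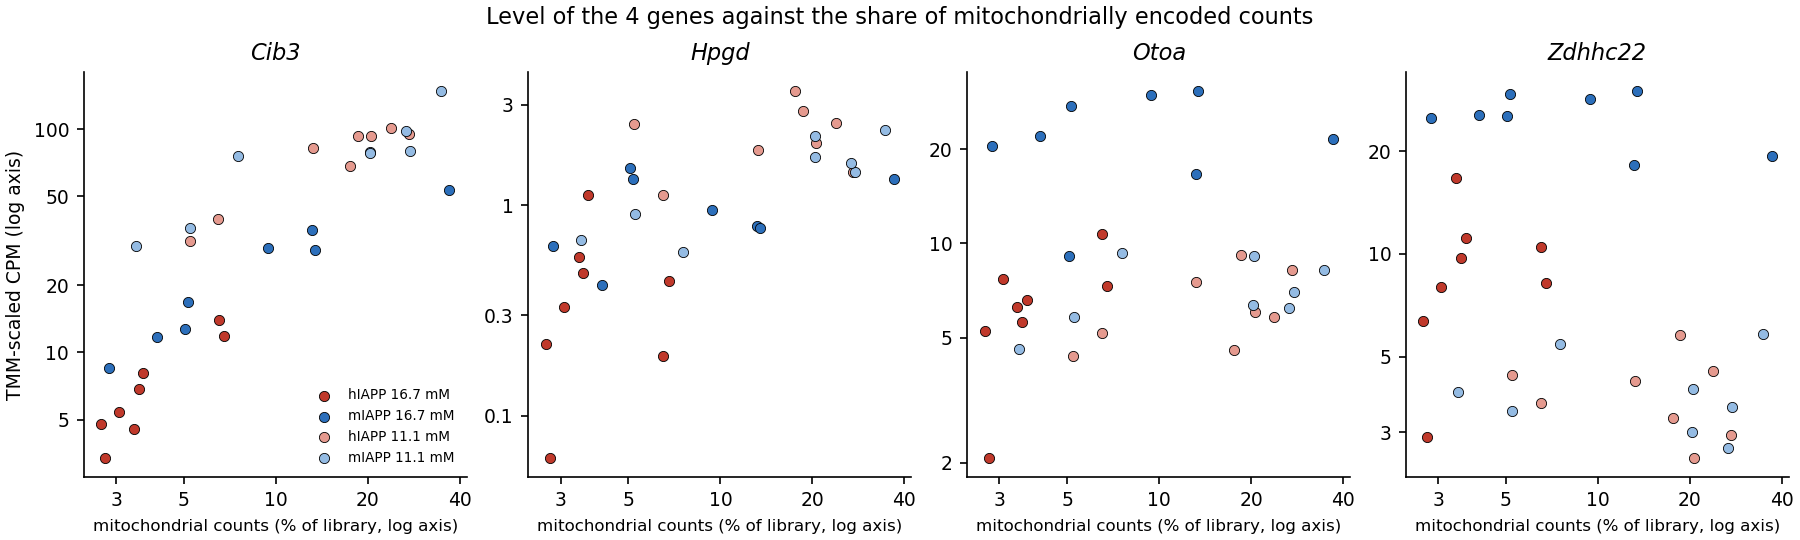
Level of each gene (vertical log axis, TMM-scaled CPM) against the mitochondrially encoded share of the library's counts (horizontal log axis, percent), with 1 point per library coloured by group. Cib3 rose along the share within groups (slope 0.41 per doubling), whereas for Zdhhc22 the 16.7 mM mIAPP libraries lay above the others at every share.

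One library stood low for all 4 genes. In the hIAPP group at 16.7 mM, the library of set 4 had the lowest level of Cib3, Hpgd, Otoa and Zdhhc22. Without that library, or any 1 set, the interaction ran from -1.75 to -1.54 for Cib3, from -2.38 to -1.75 for Hpgd, from -1.79 to -1.45 for Otoa and from -1.71 to -1.31 for Zdhhc22.

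**Figure D5:**
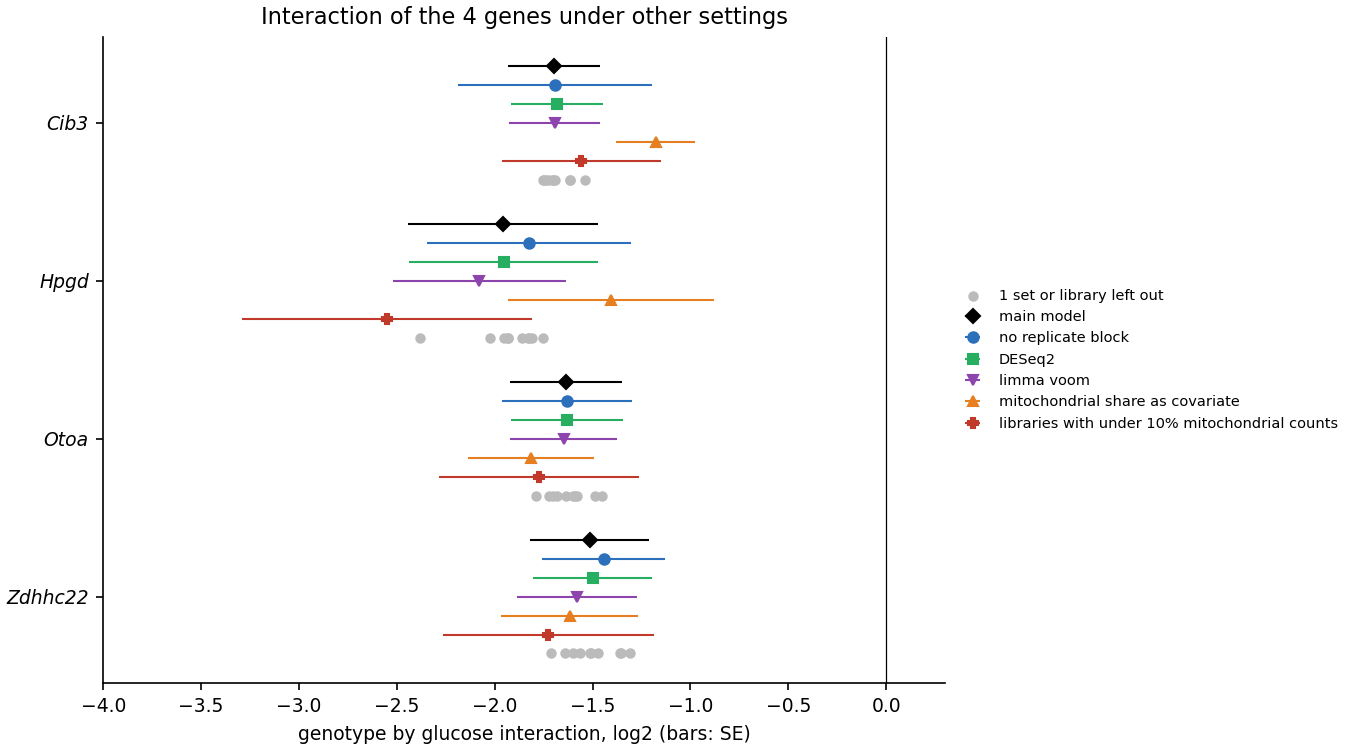
Genotype by glucose interaction of each gene on the log2 scale, with SE bars, under the main model and 5 alternatives, and without SE for fits that leave out 1 set or library (grey). All values lay below 0, and that of Cib3 was smallest with the mitochondrial share as covariate, at -1.18.

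Markers of other islet cells moved with the groups too. Of 8 endothelial markers, 5 were lower in hIAPP islets than in mIAPP islets at 16.7 mM glucose in edgeR's quasi-likelihood test, and their summed level was 23.2 to 64.0 CPM in 16.7 mM hIAPP islets, 43.7 to 141.4 CPM in 16.7 mM mIAPP islets, 67.9 to 185.5 CPM in 11.1 mM hIAPP islets and 71.8 to 192.8 CPM in 11.1 mM mIAPP islets. Of 8 beta cell markers, 6 were lower in 16.7 mM hIAPP islets, with summed levels of 132743 to 196896 CPM in 16.7 mM hIAPP islets, 158485 to 251696 CPM in 16.7 mM mIAPP islets, 158244 to 237846 CPM in 11.1 mM hIAPP islets and 149046 to 321984 CPM in 11.1 mM mIAPP islets, which overlapped. The 8 beta cell markers had a median log2 difference of -0.42 between genotypes at 16.7 mM, against -0.01 over all genes. DESeq2 and limma voom each called 7 of them lower and 0 higher. At 16.7 mM, 2 of 3 tested lymphocyte markers and 1 of 8 stellate cell markers were lower in hIAPP islets, and 1 of 6 ductal and 1 of 8 macrophage markers were higher. The part of these cells in the levels of the 4 genes was not tested. Over all genes tested, 11.2% were lower in 16.7 mM hIAPP islets and 9.27% higher. No marker of the alpha cell list (6 tested) or the delta and PP cell list (5 tested) passed at 16.7 mM, with 1 and 0 at an unadjusted p under 0.05, and 0 in DESeq2 and limma voom.

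The genes most like each of the 4 were found by Pearson's r of log2(CPM + 0.5) over the 32 libraries, which share the group differences, and r after removal of the group means is given beside it. These are descriptions. Cib3 was most like T2 (r = 0.983, 0.950 within groups), Trim7, a ubiquitin ligase of the TRIM family (0.968, 0.897), and Abtb1 (0.968, 0.901). Hpgd was most like Tmem243 (0.851, 0.661), Homer2, a postsynaptic scaffold protein (0.845, 0.653), and Uspl1, a SUMO protease (0.844, 0.685). Otoa was most like Mapt, which encodes tau (0.832, 0.608), Nt5c2, a cytosolic nucleotidase (0.812, 0.351), and Zp2, a zona pellucida protein whose gene lies 936.359 kb from Otoa (0.808, 0.382). Zdhhc22 was most like Asb11 (0.936, 0.587), Npas4 (0.928, 0.469) and Arhgef37 (0.916, 0.641).

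Among the 4 genes, the pairs within a pattern had the highest r over the 32 libraries, but not within groups, where Cib3 with Otoa lay above Cib3 with Hpgd. Cib3 and Hpgd gave 0.783 over the 32 libraries and 0.389 within groups, and Otoa and Zdhhc22 gave 0.806 and 0.561. Across the patterns, Cib3 and Otoa gave 0.031 over all libraries and 0.545 within groups, and Cib3 and Zdhhc22 gave -0.463 and 0.102. Hpgd gave -0.045 and 0.062 with Otoa, and -0.312 and 0.296 with Zdhhc22.

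Other genes of prostaglandin metabolism were set beside Hpgd. Of 12 synthesis genes, 11 were tested. At 16.7 mM, Ptgs2, the inducible cyclooxygenase, was higher in hIAPP islets (3.56 ± 2.34 CPM) than in mIAPP islets (0.917 ± 0.490 CPM; SD, n = 8 each), a log2 difference of 1.97 ± 0.45 (adjusted p = 0.00339 in edgeR). Hpgds, the prostaglandin D synthase of blood cells, was also higher, at 37.5 ± 5.20 CPM in hIAPP against 25.2 ± 4.14 CPM in mIAPP islets (log2 difference 0.57 ± 0.10, adjusted p = 0.000149 in edgeR). None of the 11 was lower in edgeR or DESeq2 (2 had an unadjusted p under 0.05, both higher), and 1 was lower in limma voom. The median log2 difference of the 11 was -0.05, against -0.01 over all genes. Of 5 tested transport and breakdown genes, Abcc4, an exporter of prostaglandins, was higher (0.69 ± 0.15, adjusted p = 0.00226) and 2 were lower: Slco2a1, the prostaglandin uptake transporter (-0.39 ± 0.11, adjusted p = 0.0120), and Cyp4f13 (-0.51 ± 0.15, adjusted p = 0.0154). Of 5 tested prostanoid receptors, Ptger4 was higher (0.83 ± 0.29, adjusted p = 0.0443) and Tbxa2r lower (-1.24 ± 0.35, adjusted p = 0.0162). Both had low levels, with means of 0.97 CPM for Ptger4 and 0.47 CPM for Tbxa2r. Over all genes tested, 9.27% were higher and 11.2% lower in 16.7 mM hIAPP islets.

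Among 11 tested genes of the calcium and integrin binding family and hair cell mechanotransduction, 9 were lower at 16.7 than at 11.1 mM on average over genotypes (median log2 change -0.57, against -0.02 over all genes) and none was higher in edgeR, DESeq2 or limma voom, with 9 at an unadjusted p under 0.05. Over all genes tested, 36.1% were lower. Cib2, a paralog of Cib3, was lower in 16.7 mM hIAPP islets, at 26.9 ± 4.56 CPM against 38.8 ± 12.6 CPM in mIAPP islets (log2 difference -0.49 ± 0.11, adjusted p = 0.00414 in edgeR). Pcdh15, a tip-link cadherin, was higher by 0.37 ± 0.11 (adjusted p = 0.0216). In this comparison edgeR called 1 of the 11 higher and 1 lower, with 6 at an unadjusted p under 0.05. DESeq2 and limma voom each called 1 higher and 3 lower. Over all genes tested, 9.27% were higher and 11.2% lower in edgeR. Of 5 tested genes of the otoancorin relatives and tectorial membrane list, 4 were lower at 16.7 mM on average over genotypes, beside 36.1% of all genes tested. Col11a2, a fibrillar collagen, was lower in the hIAPP islets than in the mIAPP islets at 16.7 mM by a log2 difference of -0.54 ± 0.14 (adjusted p = 0.00966).

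Of the palmitoyl transferases and 2 partner proteins, 23 of 25 symbols were tested on 24 rows. On average over genotypes 9 were higher and 7 lower at 16.7 mM, shares near the 34.8% higher and 36.1% lower of all genes tested. At 16.7 mM, Zdhhc5 was higher in hIAPP islets (0.36 ± 0.11, adjusted p = 0.0274 in edgeR), and Zdhhc1 (-0.44 ± 0.11, adjusted p = 0.00712) and Zdhhc2 (-0.39 ± 0.12, adjusted p = 0.0275) were lower. These were 1 higher and 2 lower of 24 rows, beside 9.27% higher and 11.2% lower of all genes tested. Among 8 enzymes that remove palmitate, Abhd17c was higher in 16.7 mM hIAPP islets, at 63.3 ± 4.29 CPM against 45.7 ± 5.10 CPM in mIAPP islets (log2 difference 0.47 ± 0.07, adjusted p = 6.30e-05), and Ppt1 was higher by 0.24 ± 0.08 (adjusted p = 0.0285). Of the 8, 2 were higher and 0 lower, beside the same shares of all genes. Kcnma1, the BK channel, had a log2 difference of 0.24 ± 0.14 (adjusted p = 0.224) between genotypes at 16.7 mM and rose with glucose by 0.77 ± 0.10 (adjusted p = 3.28e-07).

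In the interaction itself, Hpgds (0.53 ± 0.14, adjusted p = 0.0300) and Abhd17c (0.42 ± 0.10, adjusted p = 0.0257) were positive in edgeR. No gene of the transport and breakdown, receptor, mechanotransduction, tectorial membrane or palmitoyl transferase lists passed, with 2, 2, 1, 1 and 4 at an unadjusted p under 0.05. DESeq2 and limma voom each called 1 gene of the transport and breakdown list, higher, and 0 of the other 4 lists. Of the 8 beta cell markers, 1 had a negative interaction in edgeR (Nkx6-1, a beta cell transcription factor, -0.57 ± 0.14, adjusted p = 0.0257), with 6 at an unadjusted p under 0.05, 4 lower in DESeq2 and 3 lower in limma voom, and a median of -0.40. None of the 8 endothelial markers passed in edgeR, with 4 at an unadjusted p under 0.05, 1 lower in DESeq2 and 2 lower in limma voom, and a median of -0.63. The median over all genes was -0.02. Over all genes tested, 0.95% were negative and 2.17% positive in edgeR. DESeq2 and limma voom each called more genes lower over all genes than edgeR did. The part of these cells in the interaction of the 4 genes was not tested. None of the neighbours within 200 kb (11 tested for Cib3, 0 for Hpgd, 6 for Otoa and 7 for Zdhhc22) passed in edgeR, with 2, 1 and 1 of the tested ones at an unadjusted p under 0.05. DESeq2 called 1 neighbour of each of the 3 genes, higher for Cib3 and lower for Otoa and Zdhhc22. In limma voom, 1 neighbour each of Otoa and Zdhhc22 was called, both lower.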

How the data were processed

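Poly(A)-selected RNA was sequenced from directional libraries. The authors deposited 1 table of estimated counts per gene, made with kallisto per the submitters' processing notes and whole numbers as deposited. Per the submitters' processing notes, bcl2fastq 1.8.4, kallisto 0.45.0 and GRCm38 were used; how transcripts were summed to genes and rounded, and whether strand was used, is not given in the sources used here. From these counts, edgeR 4.0.16 (R 4.3.3) fitted the 4 groups with the set as a block, after TMM scaling and filterByExpr, which kept 16428 of 36595 genes. The quasi-likelihood test had 21 residual degrees of freedom, and p-values were adjusted by Benjamini-Hochberg over all genes tested, with a threshold of 0.05. The labels state that 8 sets each held all 4 groups, which gives the pairing; same-set libraries correlated by a mean r of 0.168 to 0.362 between groups after removal of group means. DESeq2 1.42.0, limma 3.58.1 (voom), other scalings and filters, the mitochondrial share, and leaving out sets or libraries were alternatives. A pseudocount of 0.5 CPM was used for correlations and within-set differences. Depth was 16112555 to 43702277 counts per library. Scripts were tested on simulated data. Besides the 4 genes and Iapp, the text names the 3 genes most like each of the 4 (mean of at least 1 CPM), the 4 other genes with the smallest p in the negative interaction, and up to 4 called genes per pathway list. The members and lists were chosen with earlier results of these data known.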

Additional observations from a re-analysis of the deposited data

Results flagged for a closer look

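These genes were set apart because their genotype difference at 16.7 mM differed from that at 11.1 mM by the interaction test of edgeR, with adjusted p under 0.05. Outside the 4 genes, the smallest p on the negative side belonged to Defb1, a beta-defensin (-1.37 on the log2 scale), Cxxc4, an inhibitor of Wnt signalling (-0.71), Mapt (-0.80) and Gm4791 (-1.12). Among the genes most like one of the 4, T2 (-1.29), Nt5c2 (-0.32), Asb11 (-1.13) and Npas4 (-1.68) were negative. Among the pathway lists, Hpgds (0.53) and Abhd17c (0.42) were positive. In the 16 combinations of the 4 genes and 4 groups, no library stood apart by Dixon's criterion at its critical value of 0.526 for 8 libraries.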

How the results depend on the processing

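Of 654 recomputed values, 601 kept their direction and call or stayed within the spread, 46 moved and 7 lost the call. With the mitochondrial share as covariate, the log2 glucose difference in hIAPP islets was -2.60 for Cib3 and -1.53 for Hpgd, and the average glucose effect no longer passed for Hpgd (-0.82) or Otoa (0.59). Among the 18 libraries with under 10% mitochondrial counts, the average genotype effect of Cib3 (-0.81), Otoa (-1.09) and Zdhhc22 (-0.86) and the average glucose effect of Hpgd (-1.07) and Otoa (0.61) no longer passed, and the glucose difference of Hpgd in mIAPP islets turned to 0.20, against -0.52 over all libraries. Fewer samples entered that fit.

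Counts of genes called over all genes moved too. A count was labelled moved beyond a change of 1.5 times, a rule unlike that for the 4 genes. The average genotype effect called 931 higher and 1044 lower. It called 291 and 179 without the block on the set that pairs the libraries, 339 and 299 with the mitochondrial covariate, and 122 and 37 in those 18 libraries. It called 566 lower with no filter on low counts and 1581 lower with limma voom. The average glucose effect called 5723 higher and 5923 lower, against 2710 and 2728 with the covariate and 3432 and 3255 in the 18 libraries. The interaction called 357 higher and 156 lower, against 165 and 31 without the block, 173 and 87 with the covariate, 6 and 1 in the 18 libraries, and 636 and 323 with DESeq2. It called 96 lower with no filter and 426 lower with limma voom. Leaving out 1 set or library gave 420 to 1465 higher and 359 to 1571 lower for the average genotype effect, and 190 to 420 higher and 49 to 169 lower for the interaction. The interaction count fell by more than 1.5 times without set 1 (49 lower), 2 (86), 4 (82), 6 (54) or 8 (83), and on the higher side without set 1 (190), 2 (224) or 6 (226). The average genotype counts fell by more than 1.5 times without set 1 (533 higher, 456 lower), 2 (420, 359), 6 (573, 490), 7 (586, 494) or 8 (498, 505). The counts of 1465 and 1571 came from leaving out the hIAPP library of set 4 at 16.7 mM, an alternative chosen after seeing the data, as was leaving out the mIAPP library of set 7 at 16.7 mM. The causes were not tested. Leaving out the block changed no call among the 4 genes; without it the interaction was -1.69 for Cib3, -1.82 for Hpgd, -1.63 for Otoa and -1.44 for Zdhhc22. Depth limits Hpgd most, at 2 to 38 counts per hIAPP library at 16.7 mM.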

Other observations

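Star, the mitochondrial cholesterol carrier named in the study's title, had a median of 136.6 CPM in hIAPP islets and 17.3 CPM in mIAPP islets at 16.7 mM. Across the 8 hIAPP libraries at 16.7 mM, Zdhhc22 was lower where Star was higher (Pearson's r = -0.73, exact permutation p = 0.0180, adjusted 0.144; Spearman's rho = -0.857, exact permutation p = 0.0107, adjusted 0.0857; r = -0.717 without the 2 libraries farthest from the median of Star). The adjustment covers 8 relations, the 4 genes in each genotype at 16.7 mM, chosen after seeing the data, and none passed it. In mIAPP islets the r of Zdhhc22 with Star was 0.134 (exact permutation p = 0.743, adjusted 0.849).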
